A study of Rattus norvegicus with 9 samples.

Results

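Chemokine transcripts of the CXC family, together with the CX3C chemokine Cx3cl1, were examined in NRK-49F, an established fibroblast line from rat kidney. The set was defined by gene symbol and held Cxcl1, Cxcl2, Cxcl3, Cxcl6, Cxcl10, Cxcl12, Cxcl16 and Cx3cl1, which are 8 of the 22050 genes in the deposited table. Their identifiers were, in that order, ENSRNOG00000002802, ENSRNOG00000002792, ENSRNOG00000028043, ENSRNOG00000002843, ENSRNOG00000022256, ENSRNOG00000013589, ENSRNOG00000026647 and ENSRNOG00000016326. Of the 8 genes, 7 passed the filter on low counts and were tested, and Cxcl6 did not pass. RNA sequencing was done on 9 libraries of wild-type cells. TGF-β1, the cytokine that turns fibroblasts into matrix-producing myofibroblasts, was given in every group, for 48 h per the labels. Beside TGF-β1, 3 libraries had the compound YWCH-4A, 3 had YEXX-2A and 3 had vehicle. The series set out to find natural small molecules against kidney fibrosis, and the comparisons ask how each compound changed transcript levels under TGF-β1. The compounds are known here by code name alone, their doses and timing are not given in the labels, and no library of untreated cells was analysed here. The labels call the replicates biological without saying how the cultures were set up, so a p-value measures the spread between these libraries.

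Chemokines are small secreted proteins that guide leukocytes along concentration gradients through receptors coupled to G proteins. Cxcl1, Cxcl2, Cxcl3 and Cxcl6 belong to the branch with a Glu-Leu-Arg motif just before the first cysteine, which acts on Cxcr2 and draws neutrophils. Cxcl10 acts on Cxcr3 and draws activated T cells, and its transcription is known for responding to interferon. Cxcl12 acts on Cxcr4 and is bound and cleared by Ackr3. Cxcl16 and Cx3cl1 are made as transmembrane proteins with a chemokine head on a mucin-like stalk, act on Cxcr6 and Cx3cr1, and are released from the cell surface by the proteases Adam10 and Adam17. Transcription of the neutrophil-attracting group is a classical output of the factor NF-κB in fibroblasts exposed to inflammatory cytokines.

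Promoter sequences are shown for the members whose upstream window held the NF-κB core, since these genes did not all move the same way. RefSeq windows of assembly GRCr8 were found for 7 of the 8 members, and the 250 bases upstream of each annotated start were searched on both strands. The NF-κB core was written as GGG, any 3 bases and TTCC, the AP-1 motif as TGANTCA, the interferon response motif as TTTC, any 2 bases and TTTC, and the TATA box as TATAAA. Capitals mark matches to the first 3 of these motifs, and matches on opposite strands that overlap run together. The bases end at the last base before the start site, and each is written 5′ to 3′ on the strand of its gene. The windows lie at chr14:17479322-17479441 on the minus strand for Cxcl1, at chr14:17467256-17467375 on the minus strand for Cxcl2, at chr14:17596418-17596537 on the minus strand for Cxcl6 and at chr14:15988816-15989065 on the plus strand for Cxcl10.
Cxcl1: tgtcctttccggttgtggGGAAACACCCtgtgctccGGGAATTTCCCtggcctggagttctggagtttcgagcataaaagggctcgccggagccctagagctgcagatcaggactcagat
Cxcl2: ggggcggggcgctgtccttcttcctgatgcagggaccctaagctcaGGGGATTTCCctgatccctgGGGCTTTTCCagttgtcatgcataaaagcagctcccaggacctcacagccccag
Cxcl6: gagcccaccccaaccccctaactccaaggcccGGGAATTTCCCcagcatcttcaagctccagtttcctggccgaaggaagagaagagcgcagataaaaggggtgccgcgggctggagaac
Cxcl10: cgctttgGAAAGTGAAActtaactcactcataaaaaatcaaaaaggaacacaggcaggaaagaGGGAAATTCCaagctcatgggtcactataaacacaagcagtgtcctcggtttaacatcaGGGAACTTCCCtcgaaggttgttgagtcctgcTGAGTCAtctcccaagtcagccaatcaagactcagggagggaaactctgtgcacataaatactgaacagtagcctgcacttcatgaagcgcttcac
The NF-κB core was found in 4 of the 7 member windows, against 4.53% of all 33469 promoter windows of the same length. Cxcl1 had a match at 84 to 75 bases upstream and another on the opposite strand at 102 to 93. Cxcl2 had matches at 74 to 65 and at 54 to 45 bases upstream, and Cxcl6 had one at 88 to 79. Cxcl10 had matches at 187 to 178 and at 128 to 119. The AP-1 motif was found in 1 of the 7 windows, that of Cxcl10, at 96 to 90 bases upstream, against 6.34% of all windows. The interferon response motif was also found in the Cxcl10 window alone, on the opposite strand at 243 to 234, against 3.41% of all windows. The TATA box letters were in 2 of the 7 windows, against 12.9% of all windows. They lay at 162 to 157 bases upstream in Cxcl10 and at 78 to 73 in Cx3cl1. Only these exact letters were counted, and near matches such as CATAAA in the printed Cxcl1 and Cxcl2 windows were not. Windows of Cxcl12 and Cxcl16 held none of the 4 motifs. A match describes letters in a window and does not show that a factor bound there. In the RefSeq gene order Cxcl2, Cxcl1, Cxcl3 and Cxcl6 share a cluster with Pf4 and Ppbp, the platelet chemokines, and Cxcl10 lies between Cxcl11 and Cxcl9.

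Total estimated counts ran from 13675880 to 21923706 per library. The variation between replicates, as the biological coefficient of variation across genes, was 3.67% in YWCH-4A libraries, 7.4% in YEXX-2A libraries and 16.7% in vehicle libraries. Vehicle replicate 2 stood apart on the first axis of within-group variation, with a score of 51.33 against -25.84 to 6.01 in the other 8 libraries. The fibroblast label was checked against marker genes. The summed level of 7 fibroblast markers was 10600 to 11600 CPM (counts scaled to a common library total) in YWCH-4A libraries, 32300 to 35600 in YEXX-2A libraries and 43000 to 55900 in vehicle libraries, while Thy1 had at most 12 counts in any library. That sum was nearly all Col1a1, Vim and Col3a1, which all fell with YWCH-4A, whereas Pdgfra, a fibroblast surface receptor, rose by 0.69 on the log2 scale (edgeR adjusted p = 7.25e-05). Among 6 kidney epithelial markers the sum was 897 to 946 CPM with YWCH-4A, 1480 to 1570 with YEXX-2A and 1710 to 2200 with vehicle; it was nearly all Krt8, a keratin, while Epcam and Krt18 were at 0. Among 9 leukocyte markers the sum was 66.2 to 73.7 CPM with YWCH-4A, 41.8 to 45.5 with YEXX-2A and 47.5 to 62.9 with vehicle. It was nearly all Cd68, a lysosomal protein, while Ptprc, the pan-leukocyte antigen CD45, had 1, 2 and 0 counts in the YWCH-4A, YEXX-2A and vehicle groups, and 3, 2 and 4 of the 9 markers were at 0. The 4 endothelial markers summed to 0.5 to 0.798 CPM with YWCH-4A, 0.444 to 1.32 with YEXX-2A and 0.713 to 1.24 with vehicle. The part of these marker levels in the chemokine results was not tested.

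Chemokine transcripts differed widely in level within one condition. Levels are given as FPKM, fragments scaled by transcript length and library total, which can be compared between genes. In YWCH-4A libraries the order was Cxcl1, Cxcl16, Cxcl10, Cx3cl1, Cxcl2, Cxcl3, Cxcl12 and Cxcl6, and no neighbours overlapped. In YEXX-2A libraries it was Cxcl16, Cxcl10, Cxcl1, Cxcl12, Cx3cl1, Cxcl2, Cxcl3 and Cxcl6, and only Cxcl2 and Cxcl3 overlapped. In vehicle libraries Cxcl16 and Cxcl10 overlapped at the top, followed by Cxcl1, then Cx3cl1, Cxcl12 and Cxcl2, of which Cxcl12 overlapped both others, and then Cxcl3 and Cxcl6. The 8 genes together summed to 804, 740 and 713 FPKM in YWCH-4A libraries, 206, 202 and 204 in YEXX-2A libraries and 223, 213 and 204 in vehicle libraries. The sum was thus higher in each YWCH-4A library than in the other 6 libraries, and the YEXX-2A and vehicle ranges overlapped.

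**Figure D1:**
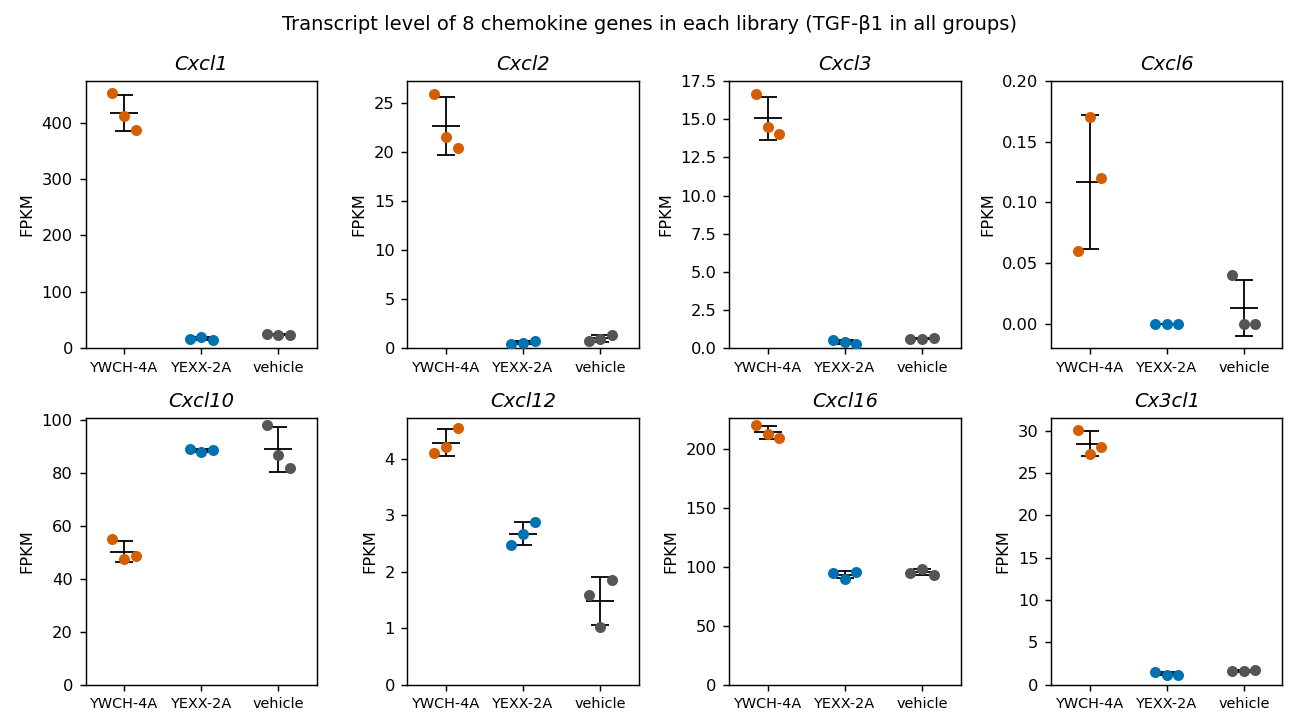
Transcript level in FPKM (vertical axis, linear, a different scale in each panel) of the 8 chemokine genes in YWCH-4A, YEXX-2A and vehicle libraries, all with TGF-β1. Points are libraries, the long bar is the mean and the short bars are 1 SD (n = 3). The YWCH-4A points lie above the others for every gene except Cxcl10, where they lie below.

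The make-up of the sum changed as well. Cxcl1 made up 54.4% to 56.2% of the summed FPKM in YWCH-4A libraries, 7.14% to 9.41% in YEXX-2A libraries and 10.8% to 11.4% in vehicle libraries. The share of Cxcl10 was 6.41% to 6.83% in YWCH-4A libraries, 43.3% to 43.7% in YEXX-2A libraries and 40.1% to 44.1% in vehicle libraries. Cxcl16 held 27.4% to 29.4% of the sum with YWCH-4A, 44.5% to 46.9% with YEXX-2A and 42.5% to 46.4% with vehicle. The FPKM of Cxcl10 divided by that of Cxcl1 was 0.122, 0.115 and 0.125 in YWCH-4A libraries, 5.26, 4.64 and 6.10 in YEXX-2A libraries and 3.86, 3.77 and 3.56 in vehicle libraries, so the 3 groups did not overlap in this ratio.

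**Figure D2:**
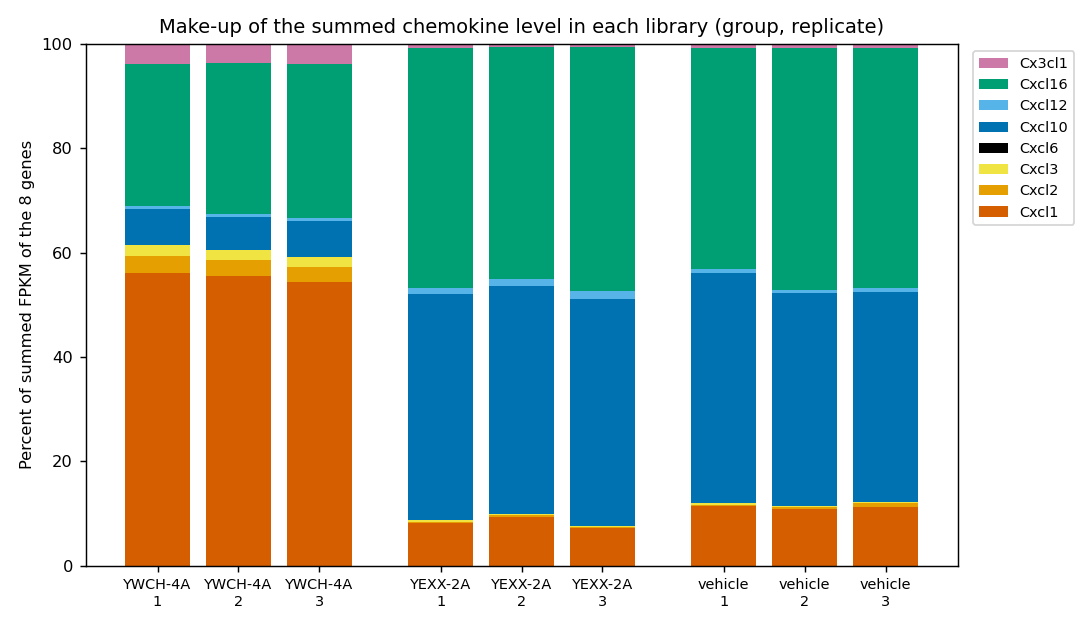
Percent of the summed FPKM of the 8 genes (vertical axis) held by each gene in each library (horizontal axis, group and replicate). Cxcl1 holds more of each YWCH-4A bar than the other 7 genes together, while Cxcl10 and Cxcl16 hold most of each YEXX-2A and vehicle bar.

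With YWCH-4A, 6 of the 7 tested chemokine genes rose relative to vehicle and 1, Cxcl10, fell. Among all 11473 tested genes 30.6% were called, 15.7% higher and 14.9% lower, a call being an adjusted p under 0.05 in edgeR's quasi-likelihood test with Benjamini-Hochberg adjustment over all tested genes. The median log2 change of the 7 genes was 3.95, against 0.03 over all tested genes. The groups did not overlap in CPM for any of the 7, 6 being higher and 1 lower, against 46% of all tested genes, of which 24.9% were higher and 21% lower. The counts of calls were the same in the other settings tried, except that a stricter filter removed Cxcl2 and Cxcl3, leaving 4 genes higher and 1 lower of 5. In bulk RNA a change in transcript per cell and a change in the number of cells that make it cannot be told apart.

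With YEXX-2A, 1 of the 7 tested genes, Cxcl12, rose relative to vehicle, and 3, Cxcl1, Cxcl2 and Cx3cl1, fell. Over all tested genes 17.6% were called higher and 18.5% lower, so the total of 4 of 7 stood against a background of 36.1% called. The median log2 change of the 7 genes was -0.41, against 0.01 over all tested genes. The groups did not overlap in CPM for 5 of the 7, 1 higher and 4 lower, against 51.6% of all tested genes, with 25.3% higher and 26.3% lower. The 4 lower ones were Cxcl1, Cxcl3, Cxcl16 and Cx3cl1, of which Cxcl16 overlapped in FPKM. The calls for Cxcl1 and Cxcl12 held in each of the 21 other settings, and those for Cxcl2 and Cx3cl1 did not: the count of genes called lower was between 1 and 3.

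Among the neutrophil-attracting ligands, Cxcl1 was the most abundant. It had 452, 412 and 388 FPKM in YWCH-4A libraries, 16.9, 19.0 and 14.5 in YEXX-2A libraries and 25.5, 23.0 and 23.0 in vehicle libraries. The 3 groups did not overlap: every YWCH-4A library was above, and every YEXX-2A library below, all vehicle libraries. Cxcl1 rose with YWCH-4A by 3.95 ± 0.10 on the log2 scale (edgeR estimate ± SE, adjusted p = 1.38e-09), a 15.5-fold difference. With YEXX-2A it fell by 0.58 ± 0.10 (adjusted p = 0.00435). The mean FPKM was 417 ± 32.4 with YWCH-4A, 16.8 ± 2.24 with YEXX-2A and 23.8 ± 1.42 with vehicle (SD, n = 3 each). The ratio of FPKM means for YWCH-4A over vehicle was 17.5, on a scale normalised differently from the counts.

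Cxcl2, a ligand of the same receptor, had 25.96, 21.5 and 20.4 FPKM in YWCH-4A libraries, 0.47, 0.52 and 0.75 in YEXX-2A libraries and 0.71, 0.93 and 1.37 in vehicle libraries. All YWCH-4A libraries were above the rest, and the YEXX-2A and vehicle ranges overlapped. The rise with YWCH-4A was 4.33 ± 0.21 on the log2 scale (edgeR adjusted p = 1.35e-07), or 20.1-fold. With YEXX-2A Cxcl2 fell by 0.90 ± 0.32 (edgeR adjusted p = 0.0494), on 33 counts over the YEXX-2A group and 47 over the vehicle group. This call was lost in 9 of the 11 settings that kept the gene and all libraries, and on leaving out any single library except vehicle replicate 1 and YEXX-2A replicate 3, with an adjusted p of up to 0.265.

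Cxcl3, another ligand of this kind, had 16.7, 14.5 and 14.01 FPKM in YWCH-4A libraries, 0.55, 0.42 and 0.27 in YEXX-2A libraries and 0.58, 0.59 and 0.64 in vehicle libraries. Each YEXX-2A value was below each vehicle value, and each YWCH-4A value was far above both. Its rise with YWCH-4A, 4.45 ± 0.19 on the log2 scale (edgeR adjusted p = 5.14e-08) or 21.9-fold, had a 95% interval that overlapped that of Cxcl2. With YEXX-2A the estimate was -0.57 ± 0.29 and did not pass the test (edgeR adjusted p = 0.227), with a 95% interval of -1.21 to 0.08. Cxcl3 had 26 counts over the YEXX-2A group and 29 over the vehicle group. Its SEs and 95% intervals are narrower than counting error alone would give. All 11473 tested genes were ranked by estimated rise with YWCH-4A. Cxcl3 was at place 18, Cxcl2 at 22, Cxcl1 at 26 and Cx3cl1 at 27 by these edgeR estimates. Cxcl2 moved above Cxcl3 without vehicle replicate 3 and on the log2(FPKM + 1) scale, where Cxcl1 was the highest of the 4. Cx3cl1 moved above Cxcl1 without vehicle replicate 2 or 3 and without YWCH-4A replicate 1 or 2. It did so too with DESeq2's Wald test and with a library score as a covariate.

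The levels of the 3 ligands stood in a nearly fixed proportion in YWCH-4A libraries. The FPKM of Cxcl1 was 17.4, 19.1 and 19.0 times that of Cxcl2 in YWCH-4A libraries, 36.0, 36.6 and 19.4 times in YEXX-2A libraries and 35.9, 24.8 and 16.8 times in vehicle libraries. Against Cxcl3, Cxcl1 was 27.1, 28.4 and 27.7 times as high with YWCH-4A, 30.8, 45.3 and 53.8 times with YEXX-2A and 43.9, 39.1 and 35.9 times with vehicle. The wide ranges outside YWCH-4A rest on few counts of Cxcl2 and Cxcl3. Cxcl1, Cxcl2 and Cxcl3 are related in sequence, and the authors' estimated counts may divide shared reads between them, so the exact proportions are uncertain.

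Cxcl6, the remaining neutrophil-attracting ligand, was close to the limit of detection. It had 2, 5 and 3 counts in YWCH-4A libraries, 0 in each YEXX-2A library and 1, 0 and 0 in vehicle libraries. The 10 counts with YWCH-4A against 1 with vehicle gave a ratio of 7.37 per scaled library size, with an exact 95% interval of 1.05 to 320 that covers counting error only. Against YEXX-2A the ratio was 3.25 when 3 counts over that group were put in place of 0. That ratio leaves out the counting error of the 10 counts, so it is not a lower limit. With no filter on low counts, edgeR's adjusted p for Cxcl6 was 0.147 for YWCH-4A against vehicle and 0.0323 for YWCH-4A against YEXX-2A. Its promoter window held the same letters, GGGAATTTCC, as that of Cxcl1. Pf4 and Ppbp, which lie in the same cluster, had 0 counts in every library.

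Cxcl10, the ligand of Cxcr3, moved the other way. It had 54.9, 47.4 and 48.6 FPKM in YWCH-4A libraries, 89.2, 88.2 and 88.6 in YEXX-2A libraries and 98.3, 86.8 and 81.9 in vehicle libraries. All YWCH-4A libraries were below the rest, and the YEXX-2A values lay within the vehicle range. Cxcl10 fell by 0.996 ± 0.08 on the log2 scale with YWCH-4A (edgeR adjusted p = 6.33e-06), to 0.501 of the vehicle level. With YEXX-2A the estimate was -0.09 ± 0.08 (edgeR adjusted p = 0.38), with a 95% interval of -0.27 to 0.09. The Cxcl10 window printed above held the NF-κB core as the Cxcl1 and Cxcl2 windows did, and was the only member window with the AP-1 and interferon response motifs.

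The other CXC and XC ligands listed for comparison were Cxcl5, Cxcl9, Cxcl11, Cxcl13, Cxcl14, Cxcl17, Pf4, Ppbp and Xcl1, of which 2 could be tested. Cxcl11, the neighbour of Cxcl10 and a ligand of the same receptor, had 10.5, 9.64 and 10.1 FPKM with YWCH-4A, 4.13, 4.33 and 3.85 with YEXX-2A and 2.32, 1.10 and 2.29 with vehicle. It rose with YWCH-4A by 2.23 ± 0.19 on the log2 scale (edgeR adjusted p = 9.62e-06) and with YEXX-2A by 1.03 ± 0.20 (edgeR adjusted p = 0.00728), while Cxcl10 fell with YWCH-4A. Leaving out vehicle replicate 2, which had the lowest value, gave 1.99 with YWCH-4A and 0.79 with YEXX-2A. Cxcl13, which guides B cells, averaged 2.18 FPKM with YWCH-4A, 3.92 with YEXX-2A and 5.23 with vehicle, and fell by 1.42 ± 0.23 with YWCH-4A (edgeR adjusted p = 9.12e-04). Its estimate with YEXX-2A, -0.48 ± 0.22, did not pass (edgeR adjusted p = 0.1). It did pass without vehicle replicate 2, at -0.61 (edgeR adjusted p = 0.0281), and with a library score as a covariate, at -0.80 (edgeR adjusted p = 0.00769). Cxcl9, also a ligand of Cxcr3, had 11, 20 and 9 counts over the YWCH-4A, YEXX-2A and vehicle groups and was not tested.

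Among 10 genes on the interferon side of Cxcl10 regulation, 5 rose and none fell with YWCH-4A, against 15.7% and 14.9% of all tested genes. Over the 21 other settings, the number higher with YWCH-4A ran from 4 to 8 and the number lower from 0 to 2. With YEXX-2A 2 rose and 2 fell, against 17.6% and 18.5%, so the share called was near the background of 36.1%. Their median log2 change was 0.24 with YWCH-4A and 0.04 with YEXX-2A, against 0.03 and 0.01 over all tested genes. Irf1, a transcription factor of the interferon response, averaged 87.7 ± 1.67 FPKM with YWCH-4A, 35.3 ± 1.40 with YEXX-2A and 40.3 ± 1.70 with vehicle (SD, n = 3 each). It rose by 0.95 ± 0.07 on the log2 scale with YWCH-4A (edgeR adjusted p = 2.07e-06) and fell by 0.27 ± 0.07 with YEXX-2A (edgeR adjusted p = 0.0157). The fall lost its call without YEXX-2A replicate 2 (edgeR adjusted p = 0.0731). Ifngr2, a chain of the interferon gamma receptor, changed by 0.23 with YWCH-4A (edgeR adjusted p = 0.0173) and by -0.22 with YEXX-2A (edgeR adjusted p = 0.0254). Leaving out vehicle replicate 1 or any YWCH-4A library ended the YWCH-4A call for Ifngr2, and leaving out any YEXX-2A library ended its YEXX-2A call, with edgeR adjusted p-values of up to 0.102. On leaving out each library, the number of the 10 genes called higher with YEXX-2A was 1 without YEXX-2A replicate 1 and 4 without vehicle replicate 2, and none was called lower without YEXX-2A replicate 2.

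Cxcl12, a chemokine that resting stromal cells make, was low but rose with both compounds. It had 4.10, 4.20 and 4.55 FPKM in YWCH-4A libraries, 2.47, 2.67 and 2.89 in YEXX-2A libraries and 1.59, 1.02 and 1.85 in vehicle libraries. The 3 groups did not overlap. The rise was 1.35 ± 0.16 on the log2 scale with YWCH-4A (edgeR adjusted p = 1.03e-04) and 0.76 ± 0.16 with YEXX-2A (edgeR adjusted p = 0.00977). Vehicle replicate 2 had the lowest value, and without it the changes were 1.18 and 0.58, both still called. Both comparisons share the vehicle libraries.

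The transmembrane chemokine Cxcl16 had 220, 213 and 210 FPKM in YWCH-4A libraries, 94.6, 90.0 and 95.4 in YEXX-2A libraries and 94.8, 98.6 and 93.6 in vehicle libraries. All YWCH-4A libraries were above the rest, while YEXX-2A and vehicle overlapped. Cxcl16 rose with YWCH-4A by 0.99 ± 0.06 on the log2 scale (edgeR adjusted p = 1.13e-06), or 1.98-fold. With YEXX-2A the estimate was -0.12 ± 0.06 (edgeR adjusted p = 0.151), with a 95% interval of -0.26 to 0.02. Its FPKM varied between replicates with a coefficient of variation of 2.51% with YWCH-4A, 3.16% with YEXX-2A and 2.74% with vehicle, and its CPM with one of 2.22%, 3.77% and 6.93%.

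Cx3cl1, or fractalkine, the other transmembrane chemokine, had 30.1, 27.3 and 28.04 FPKM in YWCH-4A libraries, 1.49, 1.21 and 1.17 in YEXX-2A libraries and 1.60, 1.59 and 1.70 in vehicle libraries. The 3 groups did not overlap, and YEXX-2A lay just below vehicle. The rise with YWCH-4A was 3.95 ± 0.11 on the log2 scale (edgeR adjusted p = 2.28e-09), or 15.5-fold, close to that of Cxcl1. With YEXX-2A Cx3cl1 fell by 0.41 ± 0.12 (edgeR adjusted p = 0.0294). This call was lost in 7 of the 12 settings other than leaving out a library, and without YEXX-2A replicate 2 (edgeR adjusted p = 0.11) or replicate 3 (edgeR adjusted p = 0.0684).

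Of 7 proteases that shed or trim these chemokines, 4 were tested. With YWCH-4A 2 rose and none fell, against 15.7% and 14.9% of all tested genes, and with YEXX-2A 1 rose and none fell, against 17.6% and 18.5%. Adam17, a sheddase of both transmembrane chemokines, had 28.4, 29.6 and 25.5 FPKM with YWCH-4A, 14.5, 15.3 and 13.2 with YEXX-2A and 12.3, 7.73 and 12.3 with vehicle. It rose with YWCH-4A by 1.20 ± 0.13 on the log2 scale (edgeR adjusted p = 6.4e-05), and with YEXX-2A the estimate was 0.34 ± 0.13 (edgeR adjusted p = 0.0682). That estimate was called without vehicle replicate 3, at 0.43 (edgeR adjusted p = 0.0338), and with DESeq2's Wald test, at 0.33 (adjusted p = 0.0431). Adam10, the other sheddase, averaged 21.0 ± 2.54 FPKM with YWCH-4A, 23.6 ± 3.77 with YEXX-2A and 13.3 ± 3.71 with vehicle (SD, n = 3 each). It rose with YEXX-2A by 0.75 ± 0.17 (edgeR adjusted p = 0.0131), a call lost without YEXX-2A replicate 2 (edgeR adjusted p = 0.0604). With YWCH-4A the estimate for Adam10 was 0.49 ± 0.17 (edgeR adjusted p = 0.0561), and it was called in 6 of the 21 other settings. Among these were leaving out vehicle replicate 3 (edgeR adjusted p = 0.0309), DESeq2's Wald test (adjusted p = 0.0245) and a library score as a covariate (edgeR adjusted p = 4.68e-05). Mmp9, a gelatinase that cleaves the ends of several CXC chemokines, had 221, 196 and 212 FPKM with YWCH-4A, 5.19, 4.90 and 5.24 with YEXX-2A and 4.85, 6.39 and 5.03 with vehicle. It rose with YWCH-4A by 5.17 ± 0.12 (edgeR adjusted p = 9.94e-10), and its estimate with YEXX-2A was -0.14 ± 0.12 (edgeR adjusted p = 0.341).

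**Figure D3:**
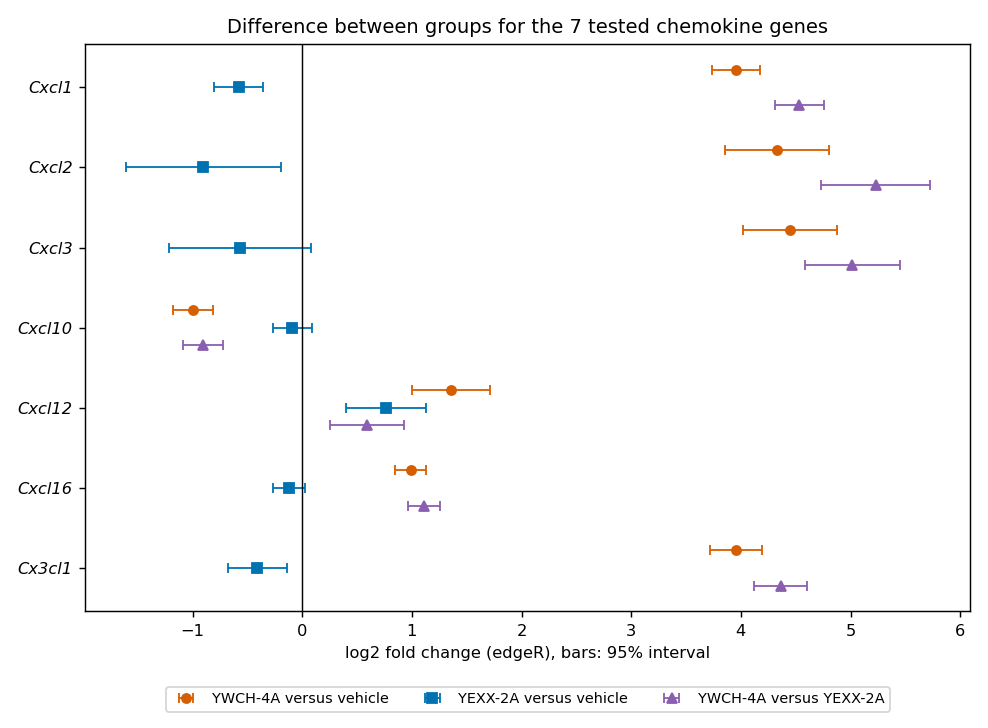
Estimated log2 fold change (horizontal axis) of the 7 tested chemokine genes for YWCH-4A over vehicle, YEXX-2A over vehicle and YWCH-4A over YEXX-2A. Points are edgeR estimates and bars are 95% intervals (n = 3 libraries a group). The bars of Cxcl3 are narrower than counting error alone would give. Cxcl1, Cxcl2, Cxcl3 and Cx3cl1 lie near 4 for YWCH-4A over vehicle, and Cxcl10 lies at -0.996.

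Transcripts of most receptors for these ligands were near the limit of detection. Of 9 listed receptors 2 were tested. None of these rose and 1 fell with YWCH-4A, against 15.7% and 14.9% of all tested genes. Neither was called with YEXX-2A, against 17.6% of all tested genes called higher and 18.5% lower. Ackr1 was not analysed here. Cxcr1 had 1, 0 and 0 counts over the YWCH-4A, YEXX-2A and vehicle groups, and Cxcr2, the receptor of the neutrophil-attracting ligands, had 0, 0 and 1. Cxcr4, the receptor of Cxcl12, had 0, 1 and 0, Cxcr5 had 2, 5 and 5, Cxcr6 had 0 in all groups, and Cx3cr1 had 0, 3 and 0. A count of this size does not exclude a low level, and 3 counts over the YEXX-2A group correspond to 0.0544 CPM. Cxcr3, the receptor of Cxcl10, was tested and averaged 0.787 ± 0.09 FPKM with YWCH-4A, 0.413 ± 0.06 with YEXX-2A and 0.500 ± 0.10 with vehicle (SD, n = 3 each). It was not called against vehicle with YWCH-4A, at 0.48 ± 0.26 on the log2 scale (edgeR adjusted p = 0.196), or with YEXX-2A, at -0.38 ± 0.28 (edgeR adjusted p = 0.316). Cxcr3 had 70, 37 and 37 counts over the YWCH-4A, YEXX-2A and vehicle groups. Its SEs are smaller than counting error alone would give. Ackr3, which scavenges Cxcl12 and Cxcl11, was the only abundant receptor, with 9.06, 7.32 and 9.24 FPKM in YWCH-4A libraries, 9.90, 10.9 and 10.7 in YEXX-2A libraries and 11.5, 11.97 and 12.2 in vehicle libraries. It fell with YWCH-4A by 0.65 ± 0.11 (edgeR adjusted p = 0.00127), and its estimate with YEXX-2A was -0.26 ± 0.11 (edgeR adjusted p = 0.0786). Between the compounds Cxcr3 was higher with YWCH-4A by 0.86 ± 0.26 (edgeR adjusted p = 0.0266) and Ackr3 differed by -0.39 ± 0.11 (edgeR adjusted p = 0.0224). The Cxcr3 call was lost without YEXX-2A replicate 1 or 2 or YWCH-4A replicate 1 or 3, and the Ackr3 call without YEXX-2A replicate 2 or 3 or YWCH-4A replicate 2, with edgeR adjusted p-values of up to 0.107.

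The 2 compounds were also compared with each other. YWCH-4A libraries had higher levels than YEXX-2A libraries for 6 of the 7 tested chemokines and a lower level for 1, Cxcl10, against 31.3% of all tested genes called, 16.2% higher and 15.1% lower. The libraries of the compounds did not overlap in CPM for any of the 7, against 58.9% of all tested genes, with 29.9% higher and 29.1% lower. The differences on the log2 scale were 5.23 ± 0.22 for Cxcl2 (edgeR adjusted p = 5.2e-08) and 5.02 ± 0.20 for Cxcl3 (edgeR adjusted p = 2.5e-08). Cxcl1 differed by 4.53 ± 0.10 (edgeR adjusted p = 4.86e-10), or 23.2-fold, and Cx3cl1 by 4.36 ± 0.11 (edgeR adjusted p = 1.14e-09), or 20.6-fold. Cxcl16 differed by 1.11 ± 0.06 (edgeR adjusted p = 5.15e-07) and Cxcl10 by -0.91 ± 0.08 (edgeR adjusted p = 1.52e-05). Cxcl12, which rose with both compounds, was higher with YWCH-4A by 0.59 ± 0.15 (edgeR adjusted p = 0.0137). That last call was lost without YEXX-2A replicate 1, YEXX-2A replicate 2 or YWCH-4A replicate 3, with edgeR adjusted p-values of 0.0671, 0.0507 and 0.0584. Doses are not given, so whether the compounds were compared at matched doses is unknown.

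NF-κB is held in the cytoplasm by inhibitor proteins and, once freed, switches on chemokine genes as well as the genes of its own inhibitors. Of 14 listed subunits, inhibitors, kinases and co-regulators, all of which were tested, 10 rose and none fell with YWCH-4A, against 15.7% of all tested genes called higher and 14.9% lower. With YEXX-2A none rose and 7 fell, against 17.6% higher and 18.5% lower. The median log2 change was 0.77 with YWCH-4A, against 0.03 over all tested genes, and -0.31 with YEXX-2A, against 0.01. Between the compounds, 11 of the 14 were higher with YWCH-4A and none was lower, against 16.2% and 15.1% of all tested genes. With YWCH-4A the number higher stayed between 9 and 12 in all 21 other settings. With YEXX-2A the number lower was between 3 and 9 over those settings, and it was 4 without YEXX-2A replicate 1 and 3 without YEXX-2A replicate 2.

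**Figure D4:**
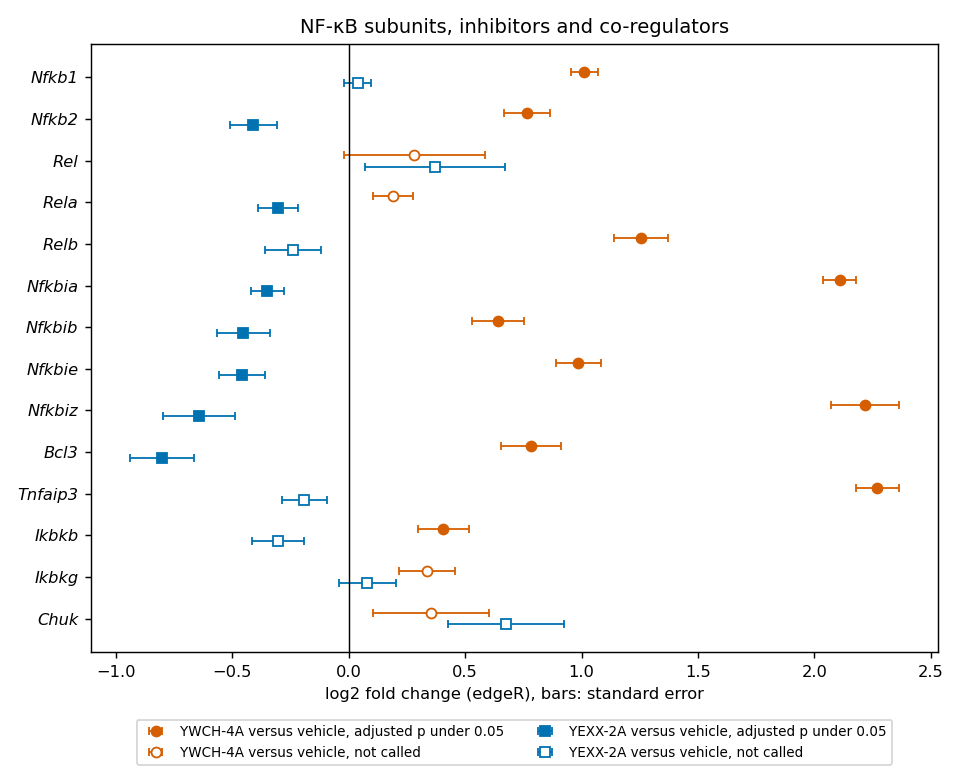
Estimated log2 fold change (horizontal axis) of 14 genes of the NF-κB pathway for YWCH-4A over vehicle (circles) and YEXX-2A over vehicle (squares), with bars of 1 standard error (n = 3 libraries a group). Filled symbols passed the test: 10 with YWCH-4A, all to the right of 0, and 7 with YEXX-2A, all to the left.

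Nfkbia, the inhibitor IκBα, had 132, 131 and 127 FPKM in YWCH-4A libraries, 22.1, 22.4 and 22.1 in YEXX-2A libraries and 26.4, 24.1 and 29.7 in vehicle libraries. The 3 groups did not overlap. It rose by 2.11 ± 0.07 on the log2 scale with YWCH-4A (edgeR adjusted p = 9.77e-09) and fell by 0.35 ± 0.07 with YEXX-2A (edgeR adjusted p = 0.00801). Tnfaip3, the ubiquitin-editing inhibitor A20, averaged 33.9 ± 0.63 FPKM with YWCH-4A, 5.77 ± 0.66 with YEXX-2A and 6.23 ± 0.37 with vehicle (SD, n = 3 each). It rose by 2.27 ± 0.09 with YWCH-4A (edgeR adjusted p = 3.73e-08), and its estimate with YEXX-2A was -0.19 ± 0.10 (edgeR adjusted p = 0.13). Nfkbiz, the nuclear co-regulator IκBζ, averaged 31.4 ± 0.84 FPKM with YWCH-4A, 4.01 ± 0.61 with YEXX-2A and 5.93 ± 1.55 with vehicle. It rose by 2.22 ± 0.15 with YWCH-4A (edgeR adjusted p = 1.21e-06) and fell by 0.64 ± 0.16 with YEXX-2A (edgeR adjusted p = 0.0147), a call lost without YEXX-2A replicate 1 (edgeR adjusted p = 0.0604).

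Many chemokine mRNAs are short-lived because proteins bind and destabilise them. Of 8 listed regulators of this decay, all tested, 1 rose and 1 fell with YWCH-4A, and none rose and 2 fell with YEXX-2A, which is no larger a share than the 30.6% and 36.1% called among all tested genes. Zc3h12a, the endonuclease Regnase-1, had 119, 111 and 110 FPKM in YWCH-4A libraries, 19.5, 17.9 and 20.0 in YEXX-2A libraries and 25.2, 26.3 and 21.96 in vehicle libraries. It rose by 2.03 ± 0.09 on the log2 scale with YWCH-4A (edgeR adjusted p = 6.86e-08) and fell by 0.44 ± 0.09 with YEXX-2A (edgeR adjusted p = 0.00856). Khsrp, which promotes decay, changed by -0.22 with YEXX-2A (edgeR adjusted p = 0.028) and by -0.18 with YWCH-4A (edgeR adjusted p = 0.0539). Traf3ip2 is an adaptor that in mouse cells stabilises Cxcl1 mRNA downstream of interleukin-17. It changed by -0.39 with YWCH-4A (edgeR adjusted p = 0.0384) and by -0.35 with YEXX-2A (edgeR adjusted p = 0.0505). Between the compounds neither was called, at 0.035 for Khsrp (edgeR adjusted p = 0.712) and -0.039 for Traf3ip2 (edgeR adjusted p = 0.839). The Khsrp call was lost without any single YEXX-2A library, and the Traf3ip2 call without any single YEXX-2A or YWCH-4A library or vehicle replicate 1, with edgeR adjusted p-values of up to 0.142. Over all 21 other settings the Khsrp call with YEXX-2A was lost in 9 and the Traf3ip2 call with YWCH-4A in 12. The Khsrp estimate with YWCH-4A was called in 5 of them and the Traf3ip2 estimate with YEXX-2A in 4. Without vehicle replicate 2, 2 of the 8 were called higher and 4 lower with YWCH-4A.

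Of 10 listed upstream cytokines and receptors, 9 were tested, of which Il1a, Il1b and Tlr2 passed the filter on low counts through the YWCH-4A libraries, where they were high; they are described with no test. Of the other 6, 1 rose and 1 fell with YWCH-4A, against 15.7% and 14.9% of all tested genes, and 1 rose and 3 fell with YEXX-2A, against 17.6% and 18.5%. Il1a, an interleukin-1 that switches on chemokine genes, had 4.06, 4.83 and 4.09 FPKM in YWCH-4A libraries, 0.15, 0.36 and 0.21 in YEXX-2A libraries and 0.29, 0.14 and 0.51 in vehicle libraries. Every YWCH-4A library was above the other 6, and YEXX-2A and vehicle overlapped. Tlr2, a receptor for bacterial lipoproteins, had 3.55, 2.84 and 3.36 FPKM with YWCH-4A, 0.23, 0.20 and 0.11 with YEXX-2A and 0.12, 0.11 and 0.24 with vehicle, and again only YEXX-2A and vehicle overlapped. Il1rn, the antagonist of the interleukin-1 receptor, rose by 1.48 ± 0.06 with YWCH-4A (edgeR adjusted p = 4.65e-08) and changed by -0.19 ± 0.06 with YEXX-2A (edgeR adjusted p = 0.042), a call lost without any single library other than vehicle replicate 2. Without YEXX-2A replicate 1, or without YEXX-2A replicate 2, none of the other 6 genes was called with YEXX-2A. Tnf, singled out after its values were seen because it is a textbook inducer of these chemokines, had 0 counts in every library.

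Genes whose levels followed each chemokine most closely were found by Pearson's r of log2 CPM over the 9 libraries, among the 9431 tested genes averaging 5 CPM or more. Because the YWCH-4A libraries stand apart from the other 6 for most members, a high r mostly describes that separation, and it is given as a description. Sod2, the mitochondrial superoxide dismutase, was among the 3 closest genes for Cx3cl1 (r = 0.999), Cxcl1 (r = 0.998) and Cxcl3 (r = 0.996). Ampd3, an AMP deaminase, was among the 3 closest for Cxcl1 (r = 0.998) and Cxcl3 (r = 0.996). AABR07063279.1, a locus described as a predicted fibronectin type III domain-containing protein 4, was among the 3 closest for Cxcl1 (r = 0.998) and Cx3cl1 (r = 0.999). Mmp10, a stromelysin, was closest to Cxcl3 (r = 0.997), and Ikbke, a kinase of the innate immune response, was among the 3 closest for Cx3cl1 (r = 0.998).

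Cxcl2 was followed most closely by Gpr176 (r = 0.997), Nfkbia (r = 0.996) and Chi3l1 (r = 0.995), an orphan receptor, the NF-κB inhibitor described above and a secreted chitinase-like protein. Cxcl16 was followed by Lcn2 (r = 0.998), the siderophore-binding protein NGAL, by Ptges (r = 0.998), a prostaglandin E synthase, and by Egln3 (r = 0.997), a prolyl hydroxylase. Cxcl10 stood with a different group, Oasl (r = 0.9901), an interferon-induced gene, Umps (r = 0.987), an enzyme of pyrimidine synthesis, and Fgfr2 (r = 0.986), a growth factor receptor. Cxcl12 stood with Ube4a (r = 0.989), Cyp1b1 (r = 0.988) and Arl6ip1 (r = 0.988), of which Cyp1b1 is a cytochrome P450 of the aryl hydrocarbon receptor pathway. The number of genes with an r above 0.99 was 37 for Cxcl1, 23 for Cxcl2, 29 for Cxcl3, 39 for Cxcl16 and 39 for Cx3cl1, but 1 for Cxcl10 and 0 for Cxcl12.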

How the data were processed

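RNA sequencing was done on poly(A)-selected RNA, per the labels' protocols. The submitters' processing notes name StringTie 1.3.1, RSEM, DESeq2 and edgeR, and the aligner, genome build, annotation and strand setting are not given in the sources used here. Per the file headers, the authors' deposited values are estimated counts and FPKM for each gene in each library; a second deposited table of group means was not used. Of nonzero counts, 8.87% were not whole, and counts were rounded. Of 22050 genes 7019 had no count, and 11473 passed filterByExpr (min.count 10) and were tested with edgeR 4.0.16 (R 4.3.3): TMM scaling, robust quasi-likelihood fit of group over all 9 libraries, Benjamini-Hochberg adjustment over all tested genes, call at 0.05. An SE is the log2 change over the square root of F. Depth limits precision for Cxcl2, Cxcl3 and Cxcl6. FPKM divides by each library's total and by gene length, with no TMM step, so a level in FPKM and a fold from counts can differ.

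The members and pathway lists were chosen with earlier results of these data known, so their counts are descriptions. Of 95 list and marker entries 91 were matched by symbol. All members were named, and also the whole receptor list, up to 3 genes per list with the smallest p in any comparison, and the 3 genes most correlated with each member. One gene that this rule names is not reported here. No promoter window was held for Cxcl3. Alternatives were 12 other settings, with limma 3.58.1 and DESeq2 1.42.0 among the tools, and leaving out each of the 9 libraries. Intervals on counts cover counting error only.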

Additional observations from a re-analysis of the deposited data

How the results depend on the processing

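For the chemokines, 406 of 434 values from the 21 other settings kept their direction and their side of the threshold, 28 kept the direction but lost the call, and none reversed. With YEXX-2A, Cxcl2 lost its call with upper-quartile factors (-0.89), no filter (-0.90), limma-voom (-0.86), limma-voom with group-wise weights (-0.86), log2(FPKM + 1) (-0.33), log2(FPKM + 0.1) (-0.68), only the 2 groups compared (-0.90) and a library score as a covariate (-0.94), and ran from -1.13 to -0.63 with a library left out. Cx3cl1 lost it with limma-voom (-0.41), group-wise weights (-0.41), log2(FPKM + 1) (-0.20), log2(FPKM + 0.1) (-0.32), only the 2 groups (-0.42) and the score (-0.37), and ran from -0.53 to -0.36 with a library left out. Cxcl12 between the compounds ran from 0.53 to 0.65 with a library left out. No filter made Cxcl6 testable, and 7 of 8 members were then higher with YWCH-4A than with YEXX-2A. Among the pathway genes, calls with YEXX-2A were lost in 16 of the 21 settings for Il1rn, 9 for Ifngr2, 4 for Nfkbiz and 2 for Irf1. The Ifngr2 call with YWCH-4A was lost in 5. The cause of these changes was not tested.

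Genes called moved more. YWCH-4A against vehicle gave 3516, or 5673 with the score (2450 to 4588 with a library left out). The score is the first axis of within-group variation in these same counts, so fitting it takes up replicate spread by construction. YEXX-2A against vehicle gave 4145 genes, 1408 with only the 2 groups and 2328 with the score (1044 to 5308 with a library left out, lowest without YEXX-2A replicate 2 and 1459 without YEXX-2A replicate 1). YWCH-4A against YEXX-2A gave 3593, 5994 with group-wise weights and 5903 with only the 2 groups (2225 to 6001 with a library left out, highest without vehicle replicate 2). On log2(FPKM + 1) and log2(FPKM + 0.1) the median of all genes for YWCH-4A against vehicle was 0.18 and 0.21, against 0.03, and 78.1% and 77.8% of calls were higher, against 51.2%. The share was 62% and 60.9% against 48.8% for YEXX-2A over vehicle, and 72.6% and 73.4% against 51.7% between the compounds; no chemokine changed direction.

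Same-numbered deviations correlated at -0.265 to 0.081, so replicate numbers showed no sign of pairing. With 3 libraries a group, and vehicle replicate 2 standing apart, this cannot tell whether same-numbered cultures were set up together. With a replicate block, YWCH-4A against vehicle gave 2787 genes, YEXX-2A against vehicle 1931 and YWCH-4A against YEXX-2A 2612, and Cxcl2 (-0.89) and Cx3cl1 (-0.42) lost their YEXX-2A calls.

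Estimates that were not called changed sign for Mmp9 with YEXX-2A (0.14 with the score, -0.23 to 0.011 with a library left out). Those for Adam10 between the compounds (0.0042 with the score) did so too. So did those for Traf3ip2 between the compounds (0.045 and 0.049 on the FPKM scales, -0.082 to 0.010 with a library left out). Tlr2, described with no test, had only 27 counts over the YEXX-2A group and 18 over the vehicle group. Its fitted values with YEXX-2A also changed sign (-0.14 with the score, -0.046 to 0.58 with a library left out). With so few counts, no conclusion is drawn from them.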
